A study of Mus musculus with 12 samples.

Results

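The 45 genes described here encode molecular chaperones and the factors that control or assist them, in BV2 cells, an immortalised mouse microglial line. They were listed by symbol as the heat shock and endoplasmic reticulum chaperones, and all 45 were found by their deposited names among the 55487 distinct gene IDs of the count table. By the compartment in which the proteins work, 25 are cytosolic, 3 are mitochondrial and 17 belong to the endoplasmic reticulum. The cytosolic group holds 18 heat shock proteins, co-chaperones and their regulator *Hsf1*, and 7 subunits of the chaperonin TRiC. *Hspb1*, which encodes a small heat shock protein, had 33 counts over all 12 libraries and did not pass the filter on low counts. The other 44 genes were tested.

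RNA-seq was done on 12 libraries in 4 groups of 3. HG+CD200Fc cells received high glucose and 50 ng/mL CD200Fc, a fusion of the CD200 ectodomain to an Fc fragment that acts as a ligand of the inhibitory receptor CD200R. HG cells received high glucose without CD200Fc, NG+CD200Fc cells normal glucose with 50 ng/mL CD200Fc, and NG cells normal glucose without it. The cells of all groups were BV2, a single line that was immortalised with oncogenes, and no allele or transgene differs between the groups in the labels. The labels give neither the glucose concentrations nor the duration, and they name no Fc control and no osmotic control. Nothing in them says that the replicates are separate cultures, and the p-values then rest on a spread between libraries that may be technical.

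The treatment protocol in the labels describes sorted cells of dissected retinas, which goes against the named BV2 source. The source was followed. All 10 microglial and macrophage markers had counts, and their sum was 4144 to 4359 CPM in HG+CD200Fc, 4219 to 4805 CPM in HG, 4584 to 4687 CPM in NG+CD200Fc and 4805 to 5054 CPM in NG libraries. CPM is the count scaled to a common library total after TMM normalisation. *Crx* of photoreceptors had 0 counts, *Aqp4* of Müller glia 1, *Rgs5* of mural cells 1 and *Snap25* of neurons 2 over the 12 libraries. All 6 markers of endothelium and mural cells had some counts, and their sum was 4.54 to 5.89 CPM in HG+CD200Fc, 6.07 to 6.60 CPM in HG, 3.79 to 5.47 CPM in NG+CD200Fc and 4.28 to 4.58 CPM in NG libraries. The sum of the photoreceptor list, with 7 of its 8 markers detected and most of it from *Pde6b*, was 38.5 to 42.2 CPM in HG+CD200Fc, 29.8 to 33.7 CPM in HG, 30.4 to 37.8 CPM in NG+CD200Fc and 33.7 to 41.7 CPM in NG libraries. All 4 markers of Müller glia and all 6 of retinal neurons had counts, with sums of at most 2.92 and 4.35 CPM in any library. The part of these shifts in the results was not tested.

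Library totals were 21454087 to 31905649 counts, and the 45 genes together took 1.31% to 1.48% of each. HG replicate 2 stood apart. Ribosomal RNA genes took 1.49% of its counts, and no other library exceeded 0.119%. Calls of members that were lost without it are stated with the comparison they belong to.

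Chaperones bind proteins that are unfolded or not yet folded and help them reach their native form. In the cytosol, Hsp70 proteins with their J-domain partners take up client chains, which can pass through the linker Stip1 to Hsp90 and its co-chaperones, while TRiC encloses actin, tubulin and other clients. The transcription factor HSF1 raises many of the cytosolic genes when unfolded protein builds up there. In the endoplasmic reticulum the Hsp70 protein BiP, lectin chaperones and disulfide isomerases fold secreted and membrane proteins, and the unfolded protein response, acting through ATF6, XBP1 and ATF4, raises their genes. Microglia secrete cytokines and carry many surface receptors, both of which pass through this compartment.

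The elements through which these responses act are short, and the promoters of several members hold them. In the RefSeq promoter table (GRCm38.p6, 250 bases before to 50 after the start), 37 of the 45 genes had at least 1 window. A search on both strands was made for the heat shock element, spelled GAA, TTC and GAA with 2 bases of any kind between them. It matched 4 of these 37 genes and 0.662% of all 27025 genes with a window. *Hspd1* and *Hspe1*, the mitochondrial chaperonin and its co-chaperonin, are transcribed in opposite directions from a shared promoter on chromosome 1. Their match lies before the start of *Hspe1* and before 1 of the starts listed for *Hspd1*. The window of a further *Hspd1* start, upstream, holds no match. The matched bases lie inside the annotated *Hspd1* gene (55077835-55088243). Of the other 2 genes, *Chordc1* has 3 matches across or just after its start and *Hsph1* has its match after the start, and these transcribed bases are not printed. In HG against NG cells *Hspd1* and *Hspe1* were called lower, at an adjusted p under 0.05 in edgeR's quasi-likelihood test, beside 12.9% of all tested genes. *Chordc1* (log2 fold change -0.16, adjusted p 0.121) and *Hsph1* (-0.14, adjusted p 0.0507) were not called. Of the 33 members with a window and no match, 12 were also called lower, 5 higher, 15 were not called and 1 was not tested. Of all tested genes, 11.7% were called higher in this comparison. The stretches of *Hspd1* and *Hspe1* are shown because the genes share this promoter. They are the same bases read on either strand, with a pair of overlapping matches in capitals.
Hspd1, chr1:55088047-55088088, minus strand: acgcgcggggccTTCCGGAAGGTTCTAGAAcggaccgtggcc
Hspe1, chr1:55088047-55088088, plus strand: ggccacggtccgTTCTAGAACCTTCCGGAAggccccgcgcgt

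The endoplasmic reticulum stress element, spelled CCAAT and CCACG with 9 bases of any kind between them, was also searched on both strands. It matched 7 of the 15 endoplasmic reticulum genes with a window, 0 of the other 22 members and 0.137% of all genes with one. A match describes letters and is neither a shown site nor a cause, and a window without a match says nothing of the factor. The 7 are printed because they carry this element. When CD200Fc was given in high glucose, 3 of them were called lower (*Hspa5*, *Pdia6* and *Calr*), and *Canx*, *Creld2*, *Dnajc3* and *Hsp90b1* were not called. Of the 8 endoplasmic reticulum genes with a window and no match, 3 were also called lower (*Pdia3*, *Pdia4* and *Herpud1*), 1 higher (*Edem1*) and 4 were not called. Of all tested genes, 8.3% were called lower and 9.46% higher in this comparison. Capitals mark the matched element, which in *Calr*, *Creld2* and the downstream copy of *Hsp90b1* reads on the strand opposite to the gene.
Hspa5, chr2:34772013-34772055, plus strand: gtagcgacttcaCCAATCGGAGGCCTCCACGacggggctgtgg
Pdia6, chr12:17266479-17266521, plus strand: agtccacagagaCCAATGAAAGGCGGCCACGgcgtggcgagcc
Calr, chr8:84847063-84847105, minus strand: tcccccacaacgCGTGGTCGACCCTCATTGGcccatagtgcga
Canx, chr11:50325788-50325830, minus strand: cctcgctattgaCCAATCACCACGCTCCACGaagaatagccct
Creld2, chr15:88819508-88819550, plus strand: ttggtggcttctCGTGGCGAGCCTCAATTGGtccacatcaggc
Dnajc3, chr14:118937815-118937857, plus strand: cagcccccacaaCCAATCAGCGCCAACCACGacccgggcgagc
Hsp90b1, chr10:86705521-86705668, minus strand: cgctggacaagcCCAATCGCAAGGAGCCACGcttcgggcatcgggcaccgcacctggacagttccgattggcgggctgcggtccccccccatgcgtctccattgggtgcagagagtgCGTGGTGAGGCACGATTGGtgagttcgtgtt

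Per kilobase of exon, the most expressed member over all 12 libraries was *Hsp90ab1*, the constitutive Hsp90, at a level of 656 CPM per kb. *Calr*, a lectin chaperone that buffers calcium, followed at 304 CPM per kb and *Hspa8*, the constitutive Hsp70, at 282 CPM per kb. The stress-inducible Hsp70 genes were near the bottom, with levels of 2.79 CPM per kb for *Hspa1b* and 1.10 CPM per kb for *Hspa1a*. As counted, the inducible genes stood far below their constitutive relative *Hspa8*. *Hspa1a* and *Hspa1b* are near-identical neighbours on chromosome 17, so their levels depend on whether the counting split, or left out, reads that fit both. How the counting treated strand is not given in the sources used here. In the annotation, 11 members share exon bases with another gene that has counts, among them *Dnaja1* with *Smu1*, *Tcp1* with *Mrpl18* and *Hspd1* with *Hspe1*. Their values are uncertain to that extent.

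**Figure D1:**
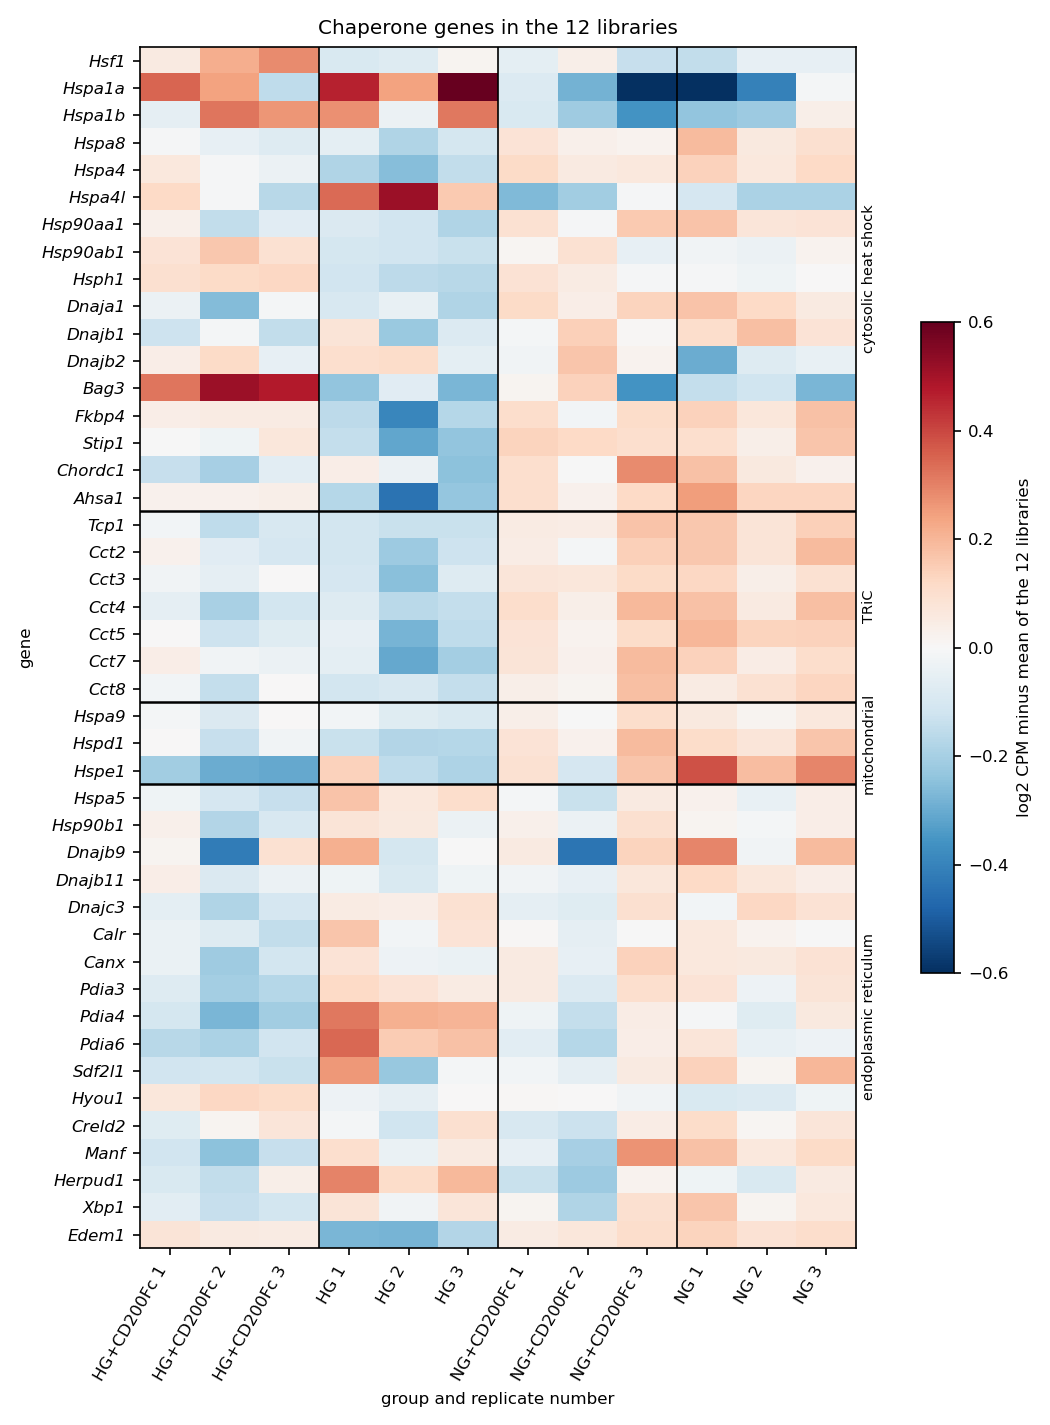
Expression of the 44 tested members in each library, as the log2 difference in CPM from the gene's own mean over the 12 libraries (colour scale ending at 0.6 in either direction, which Hspa1a exceeds). Rows are grouped by compartment and columns run from HG+CD200Fc to NG; the TRiC rows are low in the HG columns, and Pdia4, Pdia6 and Herpud1 are high there.

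The first comparison asked how high glucose alone changed the chaperones. In HG against NG cells, 22 of the 44 tested members passed, 5 higher and 17 lower, while 24.6% of all 19182 tested genes passed. A gene passed at a Benjamini-Hochberg adjusted p under 0.05 in edgeR's quasi-likelihood test, adjusted over all tested genes. The drop lay in the cytosol and mitochondria: 14 of 24 cytosolic and 2 of 3 mitochondrial members were lower, against 12.9% of all genes, and 2 cytosolic members were higher, against 11.7%. Of the 17 endoplasmic reticulum members, 3 were higher and 1 lower. The median log2 fold change was -0.22 for cytosolic, -0.28 for mitochondrial and -0.01 for endoplasmic reticulum members, beside 0.02 for all genes. In these bulk libraries, fewer cells with a transcript and less of it per cell cannot be told apart.

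All 7 TRiC subunits of the list fell in HG cells, by 0.21 to 0.31 on the log2 scale. *Cct5*, 1 of the subunits that form the TRiC ring, had 597, 509 and 556 CPM in HG libraries, against 709, 678 and 680 CPM in NG libraries. Each HG library was below each NG library. The log2 fold change was -0.31 ± 0.06 (SE), with an adjusted p of 0.000127 in edgeR's test. *Cct2* had 399, 370 and 395 CPM in HG and 482, 454 and 490 CPM in NG libraries, again without overlap (log2 fold change -0.29, adjusted p 0.000221). *Tcp1*, *Cct3*, *Cct4*, *Cct7* and *Cct8* fell with adjusted p-values of 0.000698 to 0.00625. These 7 calls held under each of the 21 alternative settings.

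Of the 2 cytosolic Hsp90 genes and the 4 Hsp90 co-chaperones of the list, *Hsp90aa1*, *Ahsa1*, *Fkbp4* and *Stip1* fell and *Hsp90ab1* and *Chordc1* did not pass. *Ahsa1*, which activates the ATPase of Hsp90, had 142, 118 and 137 CPM in HG libraries, against 191, 175 and 176 CPM in NG libraries. The gene lies on chromosome 12 at 87266479-87273998 (GRCm38). All HG libraries were below all NG libraries, and the log2 fold change was -0.45 ± 0.06 (adjusted p 4.42e-06), the steepest fall among the 44 members. *Fkbp4* (chromosome 6, 128429735-128438677), an immunophilin that assists Hsp90 in steroid receptor maturation, had 322, 274 and 318 CPM in HG and 395, 376 and 406 CPM in NG libraries. Its groups did not overlap either, with a log2 fold change of -0.37 ± 0.06 (adjusted p 3.58e-05). *Stip1*, the adaptor between Hsp70 and Hsp90, fell by 0.33 on the log2 scale (adjusted p 6.16e-05). The inducible Hsp90 gene *Hsp90aa1* fell by 0.24 (adjusted p 0.00207), whereas the constitutive *Hsp90ab1* averaged 1811 ± 18.6 CPM in HG and 1948 ± 42.6 CPM in NG libraries (SD, n = 3 each) and did not pass, with a log2 fold change of -0.11 (adjusted p 0.113). *Chordc1*, another Hsp90 co-chaperone, did not pass either (-0.16, adjusted p 0.121).

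Among the Hsp70 genes the directions were mixed. *Hspa8* had 1162, 1068 and 1126 CPM in HG and 1384, 1263 and 1293 CPM in NG libraries. The HG libraries were all below the NG libraries, with a log2 fold change of -0.23 ± 0.05 (adjusted p 0.00105). *Hspa4*, an Hsp110-type nucleotide exchange factor for Hsp70, fell by 0.30 (adjusted p 6.46e-05), and the J-domain partner *Dnaja1* fell by 0.22 (adjusted p 0.0127). Higher in HG cells were a pair of low-level genes. *Hspa4l*, a relative of *Hspa4*, had 20.7, 23.4 and 18.2 CPM in HG and 15.3, 14.4 and 14.4 CPM in NG libraries, a log2 fold change of 0.50 ± 0.11 (adjusted p 0.00105). *Hspa1a* had 4.28, 3.67 and 5.71 CPM in HG and 2.03, 2.35 and 3.09 CPM in NG libraries, a log2 fold change of 0.87 ± 0.23 (adjusted p 0.0059). In both genes the groups were separate, though *Hspa1a* rested on 998 counts in all and on how reads shared with *Hspa1b* were counted. Without HG replicate 3, *Hspa1a* and *Dnaja1* no longer passed.

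The remaining cytosolic members gave values short of the threshold. *Hspa1b* had a log2 fold change of 0.33 (adjusted p 0.106), *Hsph1*, the inducible Hsp110, -0.14 (adjusted p 0.0507) and *Dnajb1*, the inducible J-domain partner of Hsp70, -0.19 (adjusted p 0.0724). For *Dnajb2*, another J-domain gene, it was 0.19 (adjusted p 0.197). *Hsf1* itself averaged 84.5 ± 3.55 CPM in HG and 82.7 ± 3.18 CPM in NG libraries (adjusted p 0.777), and *Bag3*, an Hsp70 co-chaperone that hands clients to autophagy, 85.2 ± 6.55 CPM in HG and 86.1 ± 4.88 CPM in NG libraries (adjusted p 0.94).

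In the mitochondrion, the chaperonin pair whose shared promoter is printed above fell. *Hspd1* had 447, 434 and 436 CPM in HG and 531, 516 and 550 CPM in NG libraries, with no overlap and a log2 fold change of -0.28 ± 0.05 (adjusted p 0.000318). *Hspe1* had 78.4, 64.1 and 62.7 CPM in HG and 93.0, 80.9 and 87.3 CPM in NG libraries, also with no overlap and a log2 fold change of -0.35 ± 0.08 (adjusted p 0.00222). The genes share 112 exon bases on opposite strands, so a part of the reads could be counted for either. *Hspa9*, the mitochondrial Hsp70, had a log2 fold change of -0.11 (adjusted p 0.118).

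In the endoplasmic reticulum the called genes were a pair of disulfide isomerases and a pair of degradation factors. *Pdia4* (chromosome 6, 47796141-47813430) had 114, 106 and 105 CPM in HG and 90.9, 86.6 and 94.9 CPM in NG libraries, with separate groups and a log2 fold change of 0.25 ± 0.06 (adjusted p 0.00367). *Pdia6* had 328, 287 and 292 CPM in HG and 272, 250.04 and 253 CPM in NG libraries, also separate, with a log2 fold change of 0.23 ± 0.06 (adjusted p 0.00592). *Herpud1*, which helps assemble the degradation machinery of the endoplasmic reticulum, rose by 0.22 on the log2 scale (adjusted p 0.0238). *Edem1* (chromosome 6, 108828641-108859356), which directs misfolded glycoproteins to degradation, went the other way. It had 246, 246 and 263 CPM in HG and 327, 316 and 321 CPM in NG libraries, with a log2 fold change of -0.35 ± 0.05 (adjusted p 6.2e-06), and every HG library was below every NG library.

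The 13 other endoplasmic reticulum members did not pass, among them *Hspa5*, *Hsp90b1* and *Xbp1* of the unfolded protein response. *Hspa5*, which encodes BiP, averaged 884 ± 33.7 CPM in HG and 821 ± 24.97 CPM in NG libraries (adjusted p 0.15). Its groups were separate, at 854 to 920 CPM in HG and 792 to 839 CPM in NG libraries. *Hsp90b1*, the Hsp90 of this compartment, averaged 393 ± 16.3 CPM in HG and 388 ± 7.32 CPM in NG libraries (adjusted p 0.841), and *Xbp1*, a transcription factor of the response, 99.98 ± 3.81 CPM in HG and 103 ± 5.58 CPM in NG libraries (adjusted p 0.716). Log2 fold changes of the 13 genes lay between -0.12 for *Dnajb11* and 0.11 for *Hspa5*. The counts here are of transcripts per gene, and *Xbp1* splicing was not analysed here. *Pdia6* was not called without HG replicate 1 or without NG replicate 3, and *Herpud1* was not called without HG replicate 1, HG replicate 3, NG replicate 1 or NG replicate 2. Without HG replicate 2, 22 members again passed in HG against NG, 5 higher and 17 lower.

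**Figure D2:**
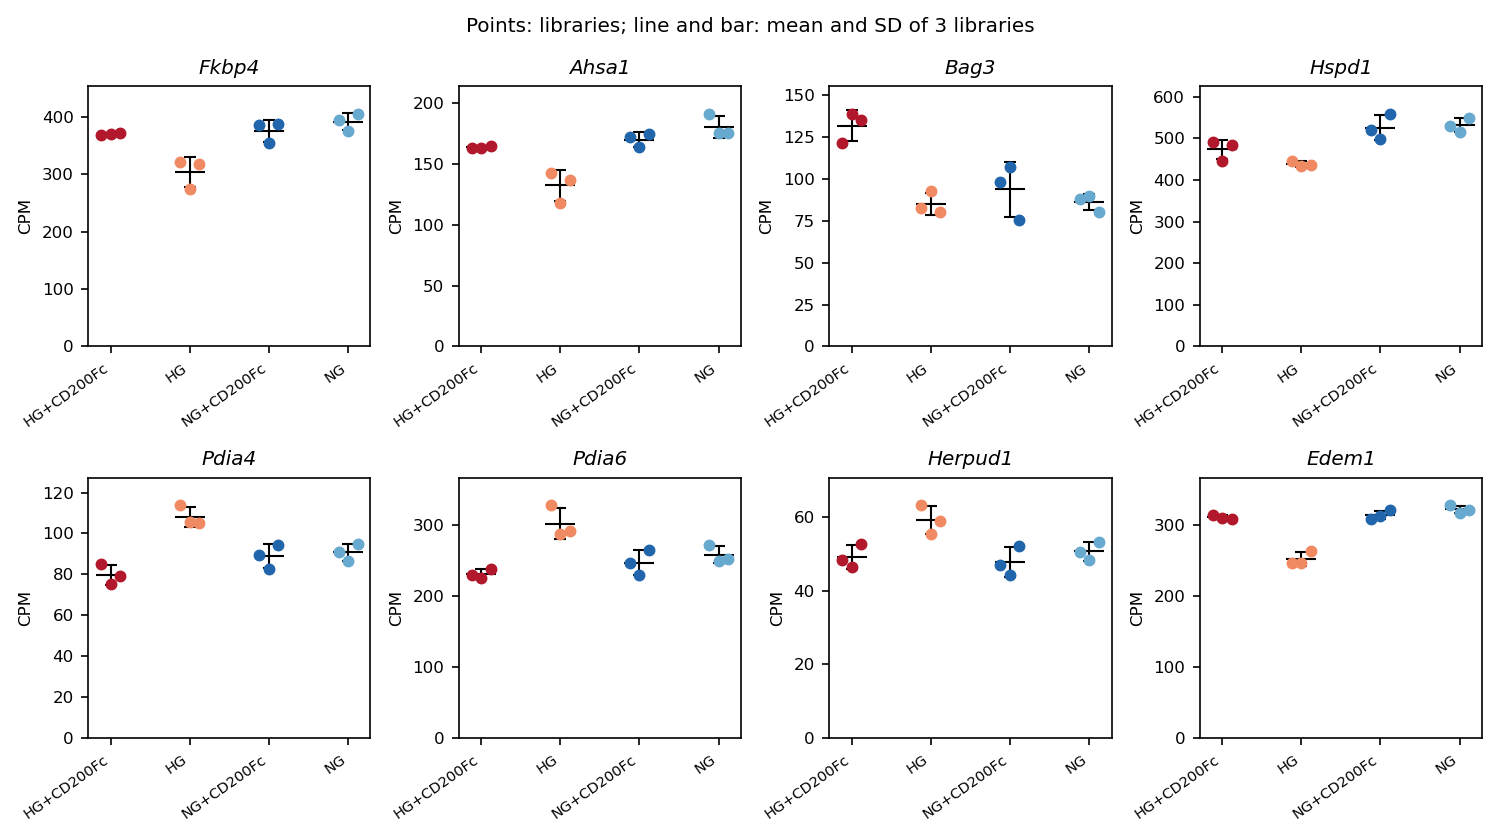
Expression in CPM (linear axis from 0) of 8 members in the 4 groups, with each library as a point and the mean and SD of 3 libraries as a line and bar. Fkbp4, Ahsa1 and Edem1 are lowest in HG and Pdia4, Pdia6 and Herpud1 highest in HG, whereas Bag3 is highest in HG+CD200Fc at 122 to 139 CPM.

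The second comparison asked what CD200Fc did in high glucose. It shares the HG libraries with the first one, so an extreme HG library moves both in opposite directions, and the values of both are set side by side without being read as independent. In HG+CD200Fc against HG cells, 17 of 44 members passed, 10 higher and 7 lower, while 17.8% of all tested genes passed. Of the 24 cytosolic members, 9 were higher and 1 lower, beside 9.46% of all genes higher and 8.3% lower. Of the 17 endoplasmic reticulum members 1 was higher and 6 lower, and of the 3 mitochondrial members 0 passed. The median log2 fold change was 0.08 for cytosolic and -0.15 for endoplasmic reticulum members, beside -0.02 for all genes.

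*Bag3* (chromosome 7, 128523616-128546981) rose most among the members. It had 122, 139 and 135 CPM in HG+CD200Fc libraries, against 82.6, 92.7 and 80.4 CPM in HG libraries. The groups were far apart relative to their spread, with a log2 fold change of 0.63 ± 0.10 (adjusted p 0.000493). *Hsf1*, the regulator of the heat shock genes, had 90.7, 102 and 106 CPM in HG+CD200Fc and 82.0, 82.8 and 88.5 CPM in HG libraries, a log2 fold change of 0.24 ± 0.06 (adjusted p 0.00953). Its groups were separate by a narrow margin, and it was not called without HG+CD200Fc replicate 3. Neither *Bag3* nor *Hsf1* had passed in HG against NG.

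Constitutive Hsp90 and 3 of its co-chaperones rose. *Hsp90ab1* had 2077, 2196 and 2096 CPM in HG+CD200Fc and 1828, 1813 and 1791 CPM in HG libraries, a log2 fold change of 0.23 ± 0.05 (adjusted p 0.000989). *Ahsa1* had 163, 163 and 164 CPM in HG+CD200Fc and, as above, 118 to 142 CPM in HG libraries, a log2 fold change of 0.31 ± 0.06 (adjusted p 0.000622). *Fkbp4* had 369, 371 and 372 CPM in HG+CD200Fc libraries and 274 to 322 CPM in HG libraries, a log2 fold change of 0.28 ± 0.06 (adjusted p 0.000827). In all 3 genes each HG+CD200Fc library was above each HG library. *Stip1* rose by 0.24 on the log2 scale (adjusted p 0.00214). *Hsp90aa1* averaged 708 ± 44.5 CPM in HG+CD200Fc and 676 ± 21.6 CPM in HG libraries and did not pass (adjusted p 0.465), and neither did *Chordc1* (log2 fold change -0.06, adjusted p 0.689).

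Both Hsp110-type exchange factors of high level rose, *Hsph1* by 0.26 (adjusted p 0.000442) and *Hspa4* by 0.20 (adjusted p 0.00529). *Hsph1* had 179, 181 and 182 CPM in HG+CD200Fc and 154, 149.9 and 149 CPM in HG libraries, which did not overlap. *Hspa4l* fell instead, with 17.8, 16.3 and 14.6 CPM in HG+CD200Fc and 20.7, 23.4 and 18.2 CPM in HG libraries (log2 fold change -0.36 ± 0.11, adjusted p 0.0208). The client-binding Hsp70 and J-domain genes did not pass. *Hspa8* had a log2 fold change of 0.07 (adjusted p 0.382), *Hspa1a* -0.38 (adjusted p 0.274), *Hspa1b* -0.01 (adjusted p 0.977), *Dnaja1* 0.01 (adjusted p 0.953) and *Dnajb1* -0.02 (adjusted p 0.887).

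Of the TRiC subunits, which had all fallen in HG against NG, *Cct7* was the 1 called in HG+CD200Fc against HG. It had 344, 330 and 326 CPM in HG+CD200Fc and 321, 271 and 290 CPM in HG libraries, a log2 fold change of 0.18 ± 0.06 (adjusted p 0.0322), and the call was lost in 7 of 21 alternatives, among them the fits without any 1 HG+CD200Fc library, HG replicate 2 or HG replicate 3. The other 6 subunits had log2 fold changes of 0.01 for *Cct4* to 0.12 for *Cct3*. *Hspd1* had 491, 446 and 483 CPM in HG+CD200Fc against 447, 434 and 436 CPM in HG libraries, which overlapped, and did not pass (0.11, adjusted p 0.176). *Hspe1* had a log2 fold change of -0.21 (adjusted p 0.0762).

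In the endoplasmic reticulum 3 disulfide isomerases, *Hspa5*, *Calr* and *Herpud1* fell. *Pdia4* had 84.9, 75.3 and 79.1 CPM in HG+CD200Fc and 114, 106 and 105 CPM in HG libraries. The groups were well apart, with a log2 fold change of -0.44 ± 0.06 (adjusted p 1.03e-05). *Pdia6* had 230.4, 226 and 238 CPM in HG+CD200Fc and 328, 287 and 292 CPM in HG libraries, also well apart, with a log2 fold change of -0.38 ± 0.06 (adjusted p 3.23e-05). *Pdia3*, the isomerase that works with the lectin chaperones, fell by 0.23 (adjusted p 0.00295). *Hspa5* had 802, 761 and 741 CPM in HG+CD200Fc and 920.5, 854 and 879 CPM in HG libraries. These groups did not overlap, and the log2 fold change was -0.20 ± 0.05 (adjusted p 0.0077). *Calr* fell by 0.17 (adjusted p 0.0223) and *Herpud1* by 0.27 (adjusted p 0.00921). *Edem1* rose, with 314, 309 and 308 CPM in HG+CD200Fc and 246, 246 and 263 CPM in HG libraries (log2 fold change 0.30 ± 0.05, adjusted p 5.51e-05).

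Of the 7 members with the printed endoplasmic reticulum stress element, 4 did not pass in HG+CD200Fc against HG cells. *Hsp90b1*, which holds a pair of matches, had a log2 fold change of -0.11 (adjusted p 0.193), *Canx*, the membrane-bound lectin chaperone, -0.12 (adjusted p 0.137), *Dnajc3*, a J-domain partner of BiP, -0.17 (adjusted p 0.102) and *Creld2*, a secreted stress-induced protein, 0.01 (adjusted p 0.923). *Pdia4*, the member with the steepest fall, has no match in its window. Other members that did not pass were *Hyou1*, the exchange factor of BiP (0.13, adjusted p 0.0574), *Manf*, a secreted stress-induced factor (-0.20, adjusted p 0.103), *Sdf2l1*, a cofactor of luminal J-domain proteins (-0.14, adjusted p 0.291), and *Xbp1* (-0.15, adjusted p 0.129). The J-domain genes *Dnajb9* (-0.13, adjusted p 0.654) and *Dnajb11* (0.02, adjusted p 0.87) did not pass either.

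Leaving out HG replicate 2 gave 17 called members again in HG+CD200Fc against HG, now 9 higher and 8 lower. *Sdf2l1* (-0.25, adjusted p 0.0145) and *Hspe1* (-0.26, adjusted p 0.049) then passed, while *Hspa4l* (-0.26, adjusted p 0.128) and *Cct7* (0.12, adjusted p 0.18) no longer did. *Hspa5* was not called without HG+CD200Fc replicate 3 or without HG replicate 1. *Herpud1* was not called without HG+CD200Fc replicate 2 or without HG replicate 1. The call of *Calr* was lost without HG+CD200Fc replicate 2 or 3, without HG replicate 1 or 3 and with only the groups compared, and that of *Hspa4l* without HG+CD200Fc replicate 2 or 3 or HG replicate 1 or 2. Without HG replicate 1, 4 rather than 7 endoplasmic reticulum members were called.

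**Figure D3:**
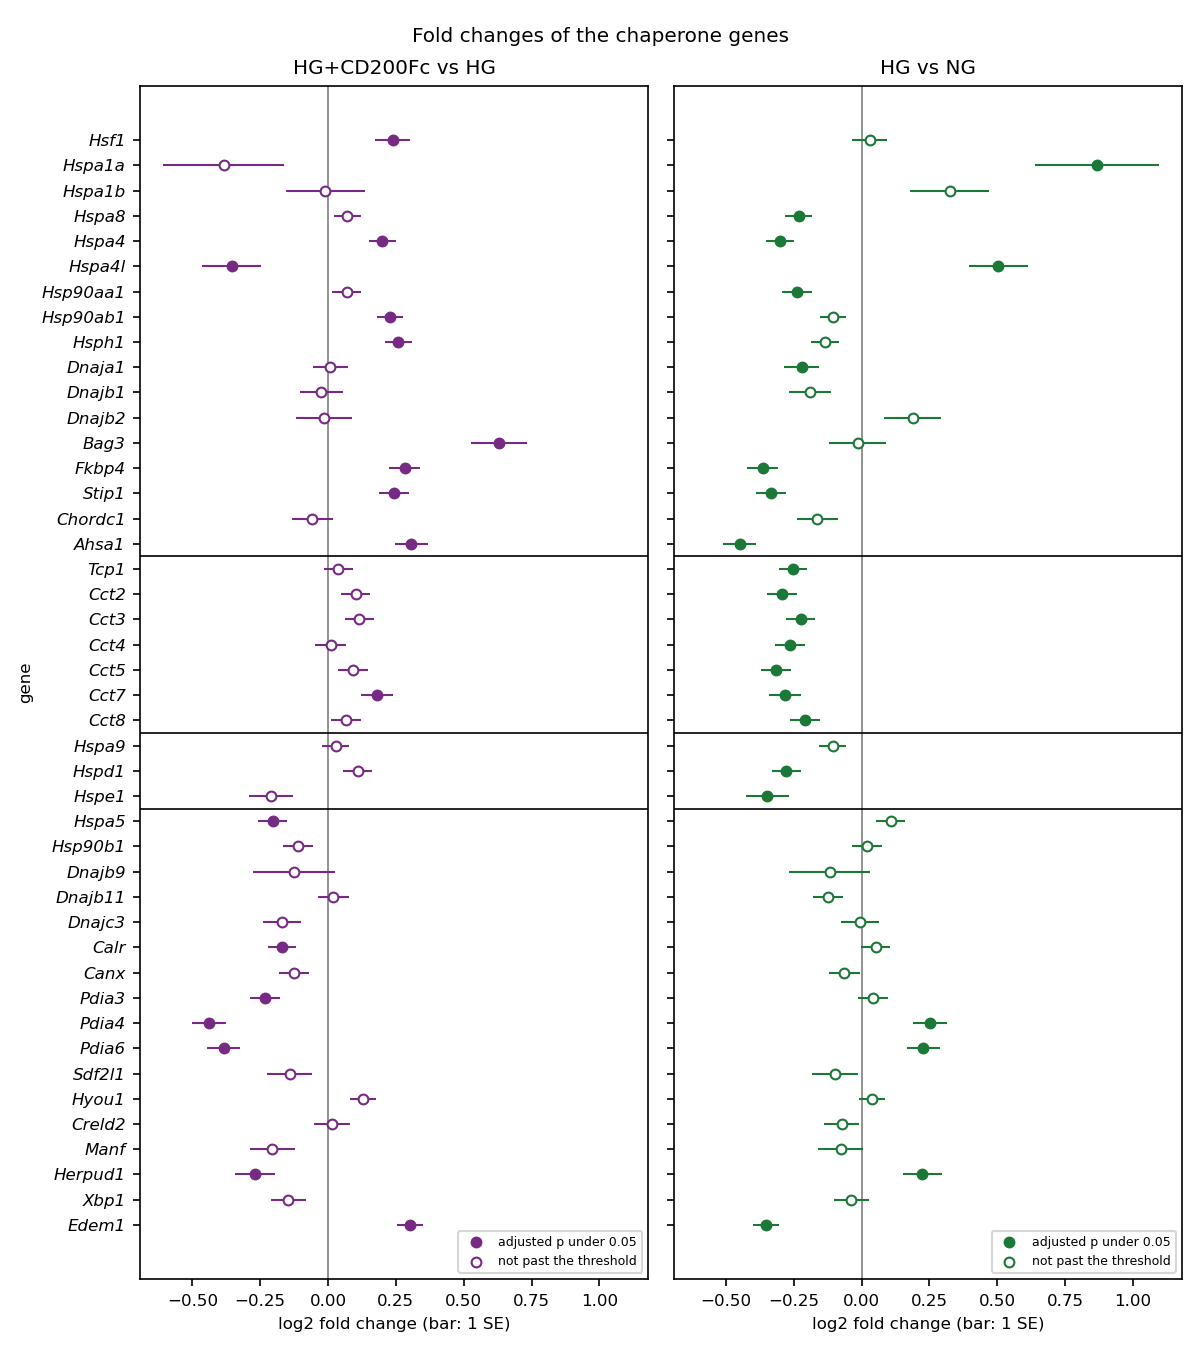
Log2 fold changes of the 44 tested members in HG vs NG and in HG+CD200Fc vs HG, with bars for the standard error from edgeR and filled points for members with an adjusted p under 0.05. Fkbp4, Ahsa1, Stip1, Hspa4, Cct7 and Edem1 are called on opposite sides in the panels, as are Pdia4, Pdia6, Herpud1 and Hspa4l; the panels share the HG libraries.

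Side by side, the log2 fold changes of *Fkbp4* were -0.37 in HG against NG and 0.28 in HG+CD200Fc against HG, and those of *Pdia4* were 0.25 and -0.44 in the same order. Whether CD200Fc acted differently in high and in normal glucose was tested as an interaction, the CD200Fc difference in high glucose minus that in normal glucose. The same HG libraries enter this term, so it is not independent of the values set side by side. It was called for 7 of 44 members, 5 higher and 2 lower, beside 7.2% of all tested genes, 3.62% higher and 3.58% lower. *Ahsa1* had an interaction of 0.39 ± 0.09 (adjusted p 0.00438), *Fkbp4* of 0.34 ± 0.08 (adjusted p 0.00846) and *Edem1* of 0.34 ± 0.07 (adjusted p 0.00236). *Pdia4* had an interaction of -0.41 ± 0.09 (adjusted p 0.00416). These 4 stayed called in each of the 20 alternatives tried for the interaction.

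The normal-glucose side of these interactions was small. *Fkbp4* had 385, 354 and 387 CPM in NG+CD200Fc and 395, 376 and 406 CPM in NG libraries. *Pdia4* had 89.7, 82.5 and 94.1 CPM in NG+CD200Fc and 90.9, 86.6 and 94.9 CPM in NG libraries. In both genes these groups overlapped. *Pdia6* (-0.32 ± 0.09, adjusted p 0.0176), *Hspa4* (0.23 ± 0.07, adjusted p 0.0465) and *Bag3* (0.51 ± 0.15, adjusted p 0.0499) were called nearer to the threshold. The call of *Pdia6* was lost in 6 of 20 alternatives, each with 1 library left out (HG+CD200Fc replicate 2, HG replicate 1, NG+CD200Fc replicates 1 and 3, NG replicates 2 and 3). That of *Hspa4* was lost in 11, with no filter and without any 1 library other than HG replicates 1 and 3. That of *Bag3* was lost in 9, including upper quartile scaling and the fits without HG+CD200Fc replicate 2 or 3, HG replicate 1 or 3, or NG replicate 1 or 2. *Hsp90ab1* (0.20, adjusted p 0.0801), *Hsph1* (0.20, adjusted p 0.0854), *Stip1* (0.23, adjusted p 0.077) and *Pdia3* (-0.22, adjusted p 0.0977) were not called, so a different response to CD200Fc in the glucose conditions was not shown for them.

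The interaction was not called for *Hspa5* (-0.17, adjusted p 0.206), *Herpud1* (-0.19, adjusted p 0.333) or any mitochondrial or TRiC gene, whose values ran from 0.02 for *Hspe1* to 0.19 for *Cct2*. Without HG+CD200Fc replicate 2 the interaction was called for 4 members, without NG replicate 2 also for 4, and without HG replicate 2 for 6.

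With CD200Fc present in both arms, high glucose was compared with normal glucose again. In HG+CD200Fc against NG+CD200Fc cells, 7 of 44 members passed, 2 higher and 5 lower, beside 8.3% of all tested genes, 4.65% higher and 3.65% lower. *Bag3* had 122, 139 and 135 CPM in HG+CD200Fc and 98.5, 107 and 75.7 CPM in NG+CD200Fc libraries, which did not overlap (log2 fold change 0.49 ± 0.10, adjusted p 0.011). *Hsf1* was the other higher gene (0.24 ± 0.06, adjusted p 0.0208). Lower were *Hspe1* (-0.33, adjusted p 0.0143), the TRiC subunits *Cct4* (-0.23, adjusted p 0.0127) and *Tcp1* (-0.18, adjusted p 0.0342), *Chordc1* (-0.27, adjusted p 0.0304) and *Pdia3* (-0.17, adjusted p 0.0467), of which *Pdia3* alone had overlapping groups.

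*Ahsa1*, *Fkbp4*, *Edem1* and *Pdia4* had passed in HG against NG and had a called interaction. Their log2 fold changes in this comparison were -0.05, -0.02, -0.01 and -0.15, with adjusted p-values of 0.643, 0.875, 0.902 and 0.132 in edgeR's test. The difference tested here equals that of HG against NG plus the interaction. These small values thus follow from the choice of genes and are no further result. The calls of this comparison rested on single libraries. Without HG+CD200Fc replicate 2, 0 members and 277 genes were called, against 7 members and 1593 genes with all libraries, and *Bag3* then had a log2 fold change of 0.36 (adjusted p 0.0776). Without HG+CD200Fc replicate 3 or NG+CD200Fc replicate 3, 1 member was called, without NG+CD200Fc replicate 1, 2 members, and without NG+CD200Fc replicate 2, 13. With upper quartile scaling *Chordc1*, *Tcp1* and *Pdia3* were not called, and the 4 remaining members were *Bag3*, *Hsf1*, *Cct4* and *Hspe1*. That scaling also moved the split of all called genes to 1115 higher and 494 lower, beside 892 higher and 701 lower with TMM.

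In normal glucose, CD200Fc called 0 of 44 members and 0% of all genes in edgeR's test, and DESeq2 and limma voom also called 0 genes. At an unadjusted p under 0.05 there were 1147 genes and 1 member, *Hspe1*. It had 76.1, 66.4 and 79.9 CPM in NG+CD200Fc and 93.0, 80.9 and 87.3 CPM in NG libraries, with separate groups, a log2 fold change of -0.23 ± 0.08 and an adjusted p of 0.816. The other 43 tested members had log2 fold changes between -0.22 for *Dnajb9* and 0.19 for *Dnajb2*. For *Fkbp4*, *Hspa5* and *Pdia4* the changes were -0.06 ± 0.06, -0.03 ± 0.05 and -0.03 ± 0.06, smaller than or near their errors.

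Summed over a compartment, the cytosolic members reached 8078 to 8254 CPM in HG+CD200Fc, 7123 to 7564 CPM in HG, 8323 to 8452 CPM in NG+CD200Fc and 8310 to 8713 CPM in NG libraries. The 3 HG libraries were below the 9 others. For the endoplasmic reticulum members the sums were 4470 to 4707 CPM in HG+CD200Fc, 4801 to 5174 CPM in HG, 4565 to 5007 CPM in NG+CD200Fc and 4783 to 4964 CPM in NG libraries. Here the HG+CD200Fc libraries were below the HG libraries, and HG overlapped NG. The mitochondrial sums were 1038 to 1116 CPM in HG+CD200Fc, 1032 to 1086 CPM in HG, 1133 to 1250 CPM in NG+CD200Fc and 1171 to 1231 CPM in NG libraries, so that high glucose libraries lay below normal glucose libraries with and without CD200Fc. These sums follow the most abundant genes of each compartment and were not tested.

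**Figure D4:**
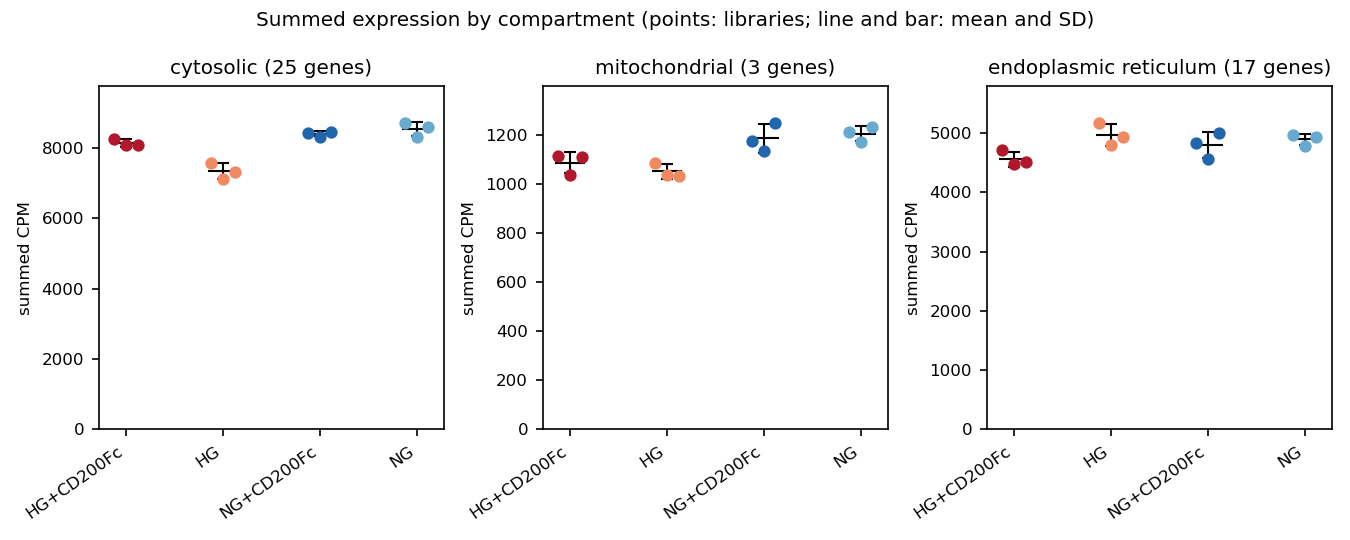
Summed expression in CPM (linear axes from 0) of the cytosolic, mitochondrial and endoplasmic reticulum members in each library, with the mean and SD of 3 libraries. The cytosolic sum of the HG libraries is 7123 to 7564, under that of the other groups, while the endoplasmic reticulum sum of HG+CD200Fc is 4470 to 4707 and that of HG 4801 to 5174.

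Beyond the 45 genes, 140 other chaperone and quality-control genes were listed in 4 groups, of which 135 were tested. Like the 45 members, they were chosen with earlier results of these data known. Their shares are therefore no independent check of the members. In HG against NG cells, where 11.7% of all tested genes were higher and 12.9% lower, 1 of 46 other cytosolic chaperones was higher (2.17%) and 18 lower (39.1%), with a median log2 fold change of -0.15. The 4 with the smallest p were *Dnajc2*, a ribosome-bound J-domain protein (-0.45, adjusted p 5.51e-07), the Hsp90 co-chaperone *Ptges3* (-0.41, adjusted p 5.27e-06), *Ruvbl1*, an ATPase that works with Hsp90 adaptors (-0.36, adjusted p 0.000159), and the TRiC subunit *Cct6a* (-0.29, adjusted p 0.000269). Of 24 other mitochondrial chaperones and proteases 1 was higher, the protease *Lonp1* (0.23, adjusted p 0.00111), and 7 were lower (29.2%), among them *Grpel1*, the exchange factor of mitochondrial Hsp70 (-0.37, adjusted p 0.000394). Of 35 other endoplasmic reticulum folding factors 4 were higher (11.4%) and 5 lower (14.3%), shares near those of all genes. The disulfide isomerase *P4hb* was higher (0.34, adjusted p 4.26e-05), and the glucosidase *Mogs* lower (-0.31, adjusted p 0.000514). Of 30 stress sensors and degradation factors 6 were higher (20.0%) and 5 lower (16.7%), and higher were the sensor *Ern1* (0.49, adjusted p 6.47e-06) and the ubiquitin ligase *Syvn1* (0.47, adjusted p 1.04e-05).

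In HG+CD200Fc against HG cells, where 9.46% of all tested genes were higher and 8.3% lower, 8 of 46 other cytosolic chaperones were higher (17.4%) and 1 lower (2.17%). *Fkbp5*, an immunophilin co-chaperone of Hsp90 related to *Fkbp4*, was higher (0.55, adjusted p 1.41e-06), as was *Bag6*, which guards proteins bound for membranes (0.45, adjusted p 5.62e-06). Of the 35 endoplasmic reticulum folding factors 5 were higher (14.3%) and 11 lower (31.4%), with *P4hb* at -0.42 (adjusted p 2.94e-06) and the prolyl isomerase *Ppib* at -0.31 (adjusted p 0.00224). Of the 30 stress sensors and degradation factors 4 were higher (13.3%) and 6 lower (20.0%). The mannosidase-like *Edem2* fell (-0.37, adjusted p 1.72e-05), while its relative *Edem1* rose, as given above. *Ppp1r15a*, which restores translation after stress, fell (-0.30, adjusted p 0.000478), and the sensor *Atf6b* rose (0.36, adjusted p 8.77e-05). Of the 24 mitochondrial genes 2 were higher (8.33%) and 1 lower (4.17%).

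The interaction, called higher for 3.62% and lower for 3.58% of all tested genes, was called higher for 5 of 46 other cytosolic chaperones (10.9%) and lower for 0, with *Fkbp5* at 0.51 (adjusted p 0.00109) and *Dnajc2* at 0.33 (adjusted p 0.00562). Of the 24 mitochondrial genes 1 was called, higher (*Phb*, 0.35, adjusted p 0.031), and of the 35 folding factors 1, lower (*P4hb*, -0.43, adjusted p 0.00072). Of the 30 stress sensors and degradation factors 2 were higher and 2 lower. Higher were the ubiquitin-conjugating enzyme *Ube2g2* (0.36, adjusted p 0.0425) and *Nploc4*, a cofactor of the segregase VCP (0.24, adjusted p 0.0471), and lower were *Edem2* (-0.40, adjusted p 0.00164) and *Ppp1r15a* (-0.27, adjusted p 0.0437).

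In HG+CD200Fc against NG+CD200Fc, where 4.65% of all tested genes were higher and 3.65% lower, 2 of 46 other cytosolic chaperones were higher and 4 lower. Of the 24 mitochondrial genes 1 was higher and 1 lower, and of the 35 folding factors 0 were higher and 3 lower. Of the 30 sensors and degradation factors *Syvn1* was called higher (0.30, adjusted p 0.00717) and 0 lower. In NG+CD200Fc against NG, 0 of the 135 genes passed in edgeR's test. At an unadjusted p under 0.05 there were 3 cytosolic genes, 4 mitochondrial genes, 3 folding factors and 1 sensor or degradation factor.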

How the data were processed

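The authors deposited raw counts per gene for 12 RNA-seq libraries, made per the labels' protocols from total RNA depleted of ribosomal RNA with RNase H and sequenced as paired reads of 150 bases. Per the submitters' processing notes, build GRCm38 was used with STAR, Salmon, featureCounts of Subread, and bcl2fastq, limma and edgeR. Neither the annotation release nor the strand setting is stated there. Of 55774 lines, 287 repeated lines with identical counts were dropped. Coordinates and exon lengths came from GENCODE M21 (GRCm38), which held 99.38% of the gene IDs.

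All 12 libraries entered one quasi-likelihood fit of edgeR 4.0.16 with a mean per group (R 4.3.3; TMM, filterByExpr, robust; 19182 genes, 8 residual degrees of freedom, biological coefficient of variation 0.0908), with Benjamini-Hochberg adjustment within each of 5 contrasts and a threshold of 0.05. Printed errors of log2 fold changes are standard errors. The 45 members and the 4 further lists were chosen with earlier results of these data known. All 45 members could be named, and up to 4 genes with the smallest p per further list and contrast. The procedure was tested on simulated data, with known changes put into genes drawn at random above a low expression limit. Of 1.25-fold changes, 35.8% were recovered in HG against NG, 32.8% in NG+CD200Fc against NG and 7.46% for the interaction. A gene that did not pass can thus still have changed by such a factor. Recovery at the levels of the members was not examined apart. Totals ranged from 21454087 to 31905649 counts, and reads have no molecular identifiers, so they were counted as reads and not as molecules. Libraries of the same group differed by more than counting error alone, as the biological coefficient of variation of 0.0908 shows. Alternatives used DESeq2 1.42.0, limma 3.58.1, other scalings and filters, a replicate block, removal of an exon length trend, only the groups compared, and each library left out in turn. The deposited table of fold changes was not used.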

Additional observations from a re-analysis of the deposited data

Results flagged for a closer look

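In edgeR's quasi-likelihood test, 7.2% of all tested genes had a called interaction. It was called for 7 of 44 members, whose CD200Fc effect differed between high and normal glucose by this term. Of the Hsp70 and Hsp90 system these were *Ahsa1* (log2 difference of 0.394055, adjusted p 0.00438), *Fkbp4* (0.344399, adjusted p 0.00846), *Hspa4* (0.230071, adjusted p 0.0465) and *Bag3* (0.508399, adjusted p 0.0499). Of the endoplasmic reticulum genes they were *Edem1* (0.33845, adjusted p 0.00236), *Pdia4* (-0.406865, adjusted p 0.00416) and *Pdia6* (-0.322428, adjusted p 0.0176). The calls of *Hspa4*, *Bag3* and *Pdia6* were lost in 11, 9 and 6 of 20 alternatives. In normal glucose none of the 7 passed in NG+CD200Fc against NG, with log2 fold changes between -0.09 for *Ahsa1* and 0.12 for *Bag3*. With 3 libraries in a group, no test for a single outlying value was made.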

How the results depend on the processing

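No called member reversed its direction under any of the 21 alternatives (20 for the interaction), where signs were compared for genes that passed in the reported or the alternative fit. The counts of called members in HG against NG, 22, and in HG+CD200Fc against HG, 17, stayed within 1.5-fold under every alternative, at 19 to 25 and 12 to 19 with a library left out. In HG+CD200Fc against NG+CD200Fc the counts moved. All called genes were 2559 with limma voom and 277 to 2288 with a library left out, against 1593. Called members were 4 with upper quartile scaling, 13 with limma voom and 0 to 13 with a library left out, against 7; cytosolic members were 3, 9 and 0 to 7, against 5. Mitochondrial members were 2 with the DESeq2 test, limma voom or the replicate block and 0 to 2 with a library left out, against 1. Endoplasmic reticulum members were 0 with DESeq2 size factors, upper quartile scaling or only the groups compared, 2 with no filter, the DESeq2 test, limma voom or the block, and 0 to 4 with a library left out, against 1. In NG+CD200Fc against NG, 21 genes were called with no filter, 9 with only the groups compared, 2 with the block and 0 to 8 with a library left out, against 0. In HG+CD200Fc against HG, mitochondrial members were 1 with no filter, the block or the exon length trend removed and 0 to 1 with a library left out, against 0, and endoplasmic reticulum members were 4 to 9 with a library left out, against 7. For the interaction, called members were 11 with limma voom and 4 to 8 with a library left out, against 7, and cytosolic members 7 with the DESeq2 test or limma voom and 2 to 6, against 4. The cause of these shifts was not tested.

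Same-numbered libraries correlated at -0.0694 to 0.184 in their deviations from the group means, and differently numbered ones at -0.207 to 0.244. Of the 12 libraries, 7 correlated best with their own number. These values do not settle whether the numbers pair the libraries. With the replicate block, 23 members were called in HG against NG, 20 in HG+CD200Fc against HG and 10 for the interaction. The lowest members, *Hspa1a* and *Hspb1*, had 998 and 33 counts over all libraries, and *Hspb1* was not tested.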
